A study of Mus musculus with 6 samples.

Results

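MicroRNAs tied to cellular senescence and to inflammation were read from 6 single-colour microRNA arrays of mouse oocytes. The set was fixed by name as 4 entries, mmu-miR-22, mmu-miR-34a, mmu-miR-146a and mmu-miR-155, of the 577 microRNA entries on each array, 567 of them mouse microRNAs. The rule that picked them used names only. RNA came from pooled oocytes of C57BL/6 mice, in 3 groups of 2 arrays. Young large oocytes were 60 to 80 µm across and came from mice of 6 to 8 weeks. Aged large oocytes had that same diameter and came from mice of 41 to 43 weeks, or of 42 to 44 weeks in the free-text description of the same samples. Young small oocytes, which the titles call non-growing and another label places in primordial follicles, measured 20 to 50 µm and came from mice of 6 to 8 weeks. No allele or agent is named for any group. The 2 arrays of a group are duplicates with no animal or pool named for either, so a p-value here covers only array to array variation, possibly technical, and the number of arrays limits the precision.

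Senescence is a lasting exit from the cell cycle, often with secretion of inflammatory proteins, and each of the 4 microRNAs acts on one side of it. miR-34a is transcribed by p53 and represses cell cycle and survival genes, and miR-22 accumulates in senescent human fibroblasts, where it represses CDK6 and SIRT1. miR-146a is switched on by NF-κB and damps that pathway through TRAF6 and IRAK1, while miR-155 is made in activated macrophages and lymphocytes and represses negative regulators of their response such as SOCS1 and SHIP1. Fully grown mouse oocytes carry microRNAs although repression by them is known to be weak there.

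The mature sequences are shown because the seed, bases 2 to 8 from the 5′ end and printed in capitals, sets which messenger RNAs a microRNA pairs with. All 4 entries were matched to RefSeq (build GRCm38.p6), miR-22 to the 3p arm and the others to the 5p arm of their hairpins. The 4 seeds were all different.
miR-22: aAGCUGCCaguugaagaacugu
miR-155: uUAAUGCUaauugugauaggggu
miR-34a: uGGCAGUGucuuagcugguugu
miR-146a: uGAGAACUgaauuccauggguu

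The arrays' files name no genome build, so positions are those of the RefSeq table. miR-22 lies at chr11:75463772-75463793 on the plus strand, inside the span of the long non-coding host gene Mir22hg. miR-155 lies at chr16:84714143-84714165 on the plus strand, inside Mir155hg. The positions of miR-34a, chr4:150068473-150068494 (plus strand), and of miR-146a, chr11:43374435-43374456 (minus strand), fall inside no other gene of that table.

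miR-22 and miR-155 were called detected on all 6 arrays, and miR-34a and miR-146a on none. A threshold of 3 times the deposited error of the signal in place of the scanner software's own call gave the same 6 and 0 arrays. Across the array 56 entries were detected on all 6 arrays, 108 on at least 1 and 469 on none. Young large arrays had 102 and 97 detected entries, aged large arrays 79 and 89, and young small arrays 57 and 60. Signals of all entries together were brightest in young large oocytes: the factors that put the arrays on a common scale, taken from the 75th percentile of the 56 commonly detected entries, were 1.94 and 1.48 there, 0.954 and 1.06 in aged large and 0.582 and 0.589 in young small oocytes. The input of RNA per array was not given in the sources used here. In pooled cells a lower level per cell and fewer cells that carry a microRNA cannot be told apart.

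**Figure D1:**
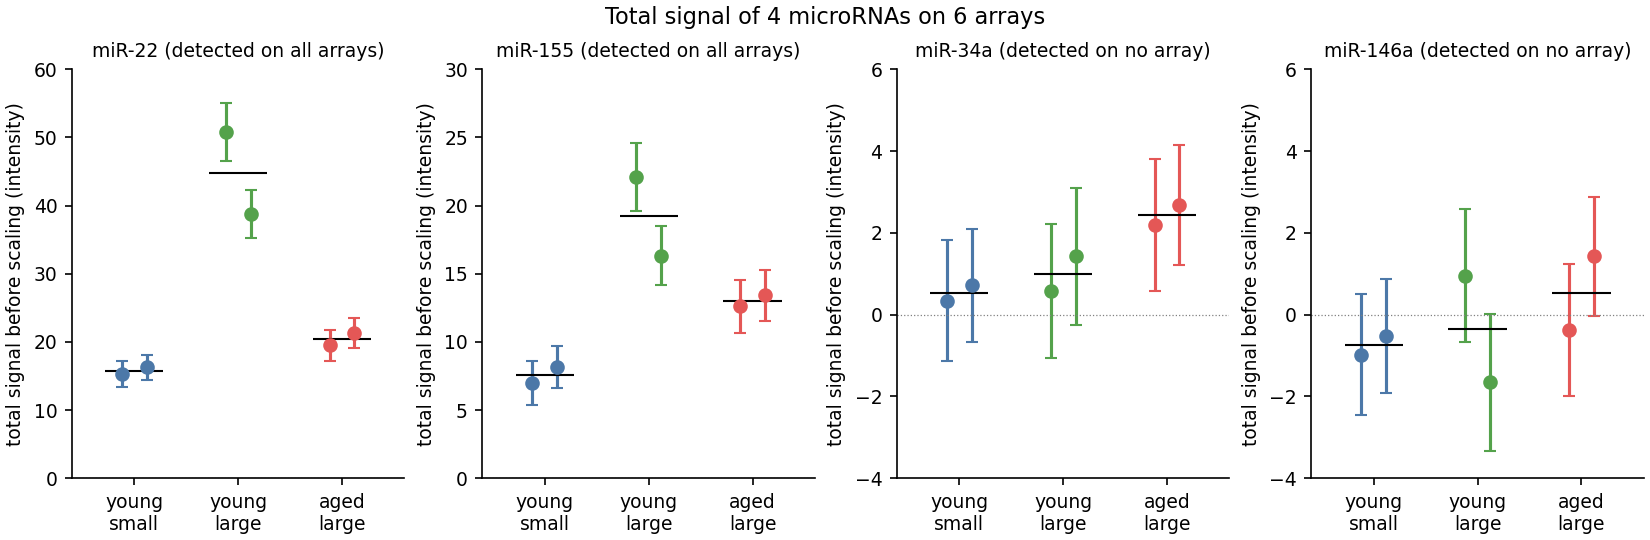
Total signal before scaling (vertical axis, linear intensity) of the 4 microRNAs on each array, by group on the horizontal axis. Points are arrays, bars the deposited error of the signal and black lines group means. The bars of miR-22 and miR-155 lie clear of 0, and the signals of miR-34a and miR-146a lie within 2 errors of 0 on every array.

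miR-22 was the brighter of the detected pair before scaling, with total signals of 50.8 and 38.8 in young large oocytes, 19.5 and 21.3 in the aged group and 15.3 and 16.2 in the young small group. The deposited error was between 8.35% and 12.6% of these signals. miR-155 gave 22.1 and 16.3 in young large, 12.6 and 13.4 in aged large and 6.98 and 8.15 in young small oocytes. Its error was between 11.4% and 23.2% of the signal, widest in young small oocytes. Both microRNAs thus ran from young large through aged large down to young small oocytes, the order of the arrays' brightness, and the scaled values below take that brightness out. Signals of different microRNAs were not set against each other as levels, since each entry has its own probes.

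The first comparison asked what differs between large oocytes of aged and of young mice, the contrast that the series text connects with reproductive ageing. miR-22 fell in aged oocytes. Its scaled signal was 26.1 on both young large arrays and 20.4 and 20.1 on the aged large arrays, and the groups did not overlap. The mean was 26.1 ± 0.00159 for young mice and 20.3 ± 0.240 for aged mice (SD, n = 2 each). On the log2 scale the change was -0.37 ± 0.03 (SE, 95% interval -0.45 to -0.28; limma, adjusted p = 0.00405), or 0.776-fold.

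The fall of miR-22 was a modest one. It stood as number 11 in size among the 15 microRNAs that fell, which were 15.5% of the 97 tested. With the deposited errors of the 4 arrays combined, the change had an error of 0.14 on the log2 scale, so that it was 2.57 times that error. The duplicates of young large oocytes lay much closer together than their deposited errors of 2.18 and 2.34 in scaled signal, and the standard error of the fit rests on the duplicates.

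miR-155 had scaled signals of 11.4 and 11.002 in large oocytes of young mice and 13.2 and 12.7 in those of aged mice. The aged arrays lay above the young ones. Group means were 11.2 ± 0.259 and 12.9 ± 0.409 (SD, n = 2 each). The log2 difference of 0.21 ± 0.08 (SE, 95% interval -0.04 to 0.46) did not pass (limma, adjusted p = 0.157), and it was 1.08 times the error that the deposited errors give. Of the 2 members tested, 1 was called, beside 29.9% of all 97 microRNAs tested. In both members the 2 groups did not overlap, as in 60.8% of those tested. Both shares count entries at the floor in both groups, which can be neither called nor free of overlap. Testing only the 56 entries detected on all 6 arrays, as both members were, called 25 of them (13 higher, 12 lower). Their median log2 change was 0.12, beside 0 over all 97.

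**Figure D2:**
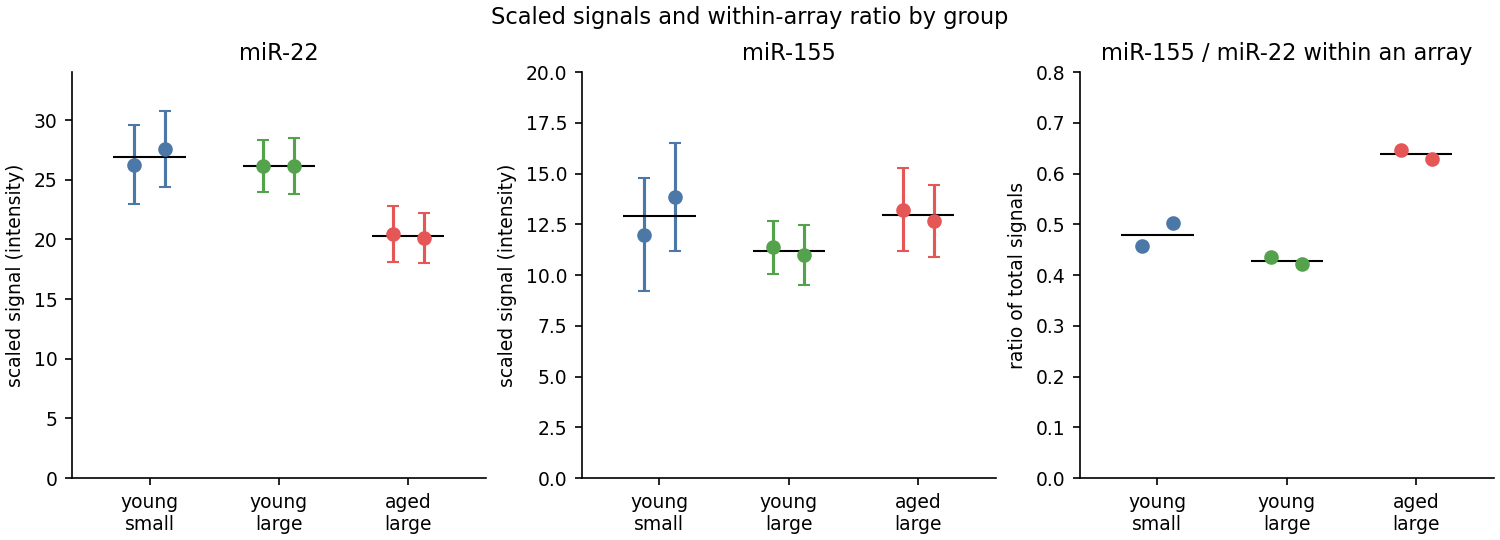
Scaled signal of miR-22 and of miR-155 (left and middle, linear intensity) and the ratio of their total signals within each array (right), by group. Points are arrays, bars the deposited error divided by the array's scaling factor, and black lines group means. miR-22 is lowest on the 2 aged large arrays, near 20, and the ratio is highest there, at 0.648 and 0.630.

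Since both signals come from one array, the ratio of miR-155 to miR-22 does not depend on the factor by which each array is divided. Quantile normalization is not such a factor and can change it. This ratio was chosen after the values of both were seen. The ratio was 0.435 and 0.421 for young large oocytes, 0.648 and 0.630 for aged ones and 0.457 and 0.502 for young small ones. Both aged arrays lay above the other 4. The ratio was 1.49-fold higher in aged than in young large oocytes (log2 difference 0.58 ± 0.06, SE over 6 arrays), 2.38 times the error from the deposited errors. A two-sided exact permutation test of 2 against 2 arrays gave p = 0.333, the smallest it can give. With so few arrays that test cannot decide whether the 2 microRNAs changed unequally. In these duplicates the ratio was higher in aged than in young large oocytes whichever array was left out (log2 difference 0.55 to 0.60). How often other pairs of microRNAs differ by as much was not tested. The ratio does not show which of the 2 microRNAs moved. Between young large and young small oocytes the ratio differed by -0.16 ± 0.06 on the log2 scale, 0.549 times the error from the deposited errors (exact permutation, two-sided p = 0.333).

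The call of miR-22 depended on the scaling and on a single array outside the comparison. Its log2 change was negative under all 5 other scalings, from -1.12 without any scaling to -0.31 with the median of the commonly detected entries. It did not pass with that median (limma, adjusted p = 0.0584) or with the 75th percentile over all entries (limma, adjusted p = 0.186), and it was lost without young small array 1 (log2 change -0.37; limma, adjusted p = 0.0523). Over the 20 alternatives limma's adjusted p lay between 0.00510 and 0.186. For miR-155 the sign turned under 3 of 5 scalings, to -0.55 without scaling, -0.21 with the total signal and -0.02 with quantile normalization.

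**Figure D3:**
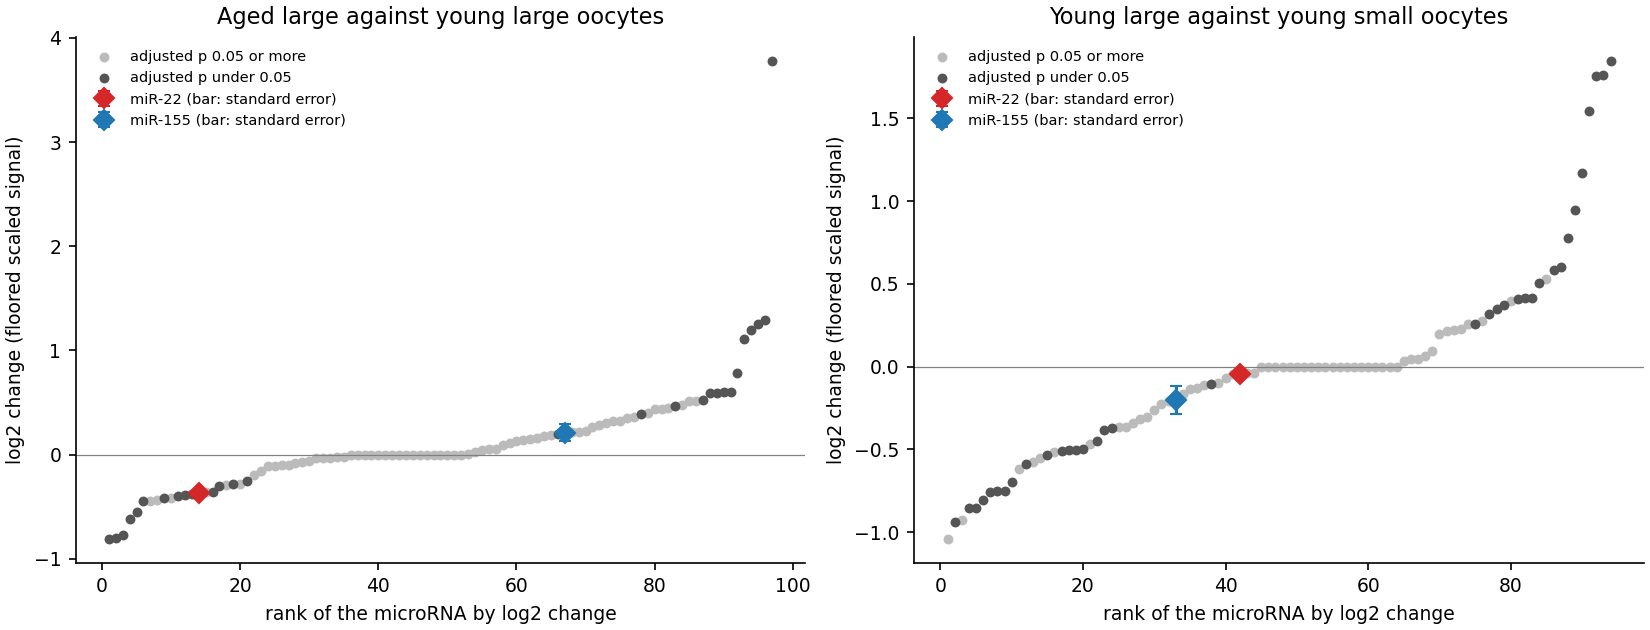
Log2 change of every tested microRNA (vertical axis, floored scaled signal) against its rank (horizontal axis), for ageing (left) and growth (right). Dark points passed an adjusted p of 0.05 and grey points did not; diamonds are miR-22 (red) and miR-155 (blue) with standard errors, which for miR-22 are smaller than its diamond. miR-22 sits among the falls with ageing at -0.37 and near 0 with growth, and miR-155 changes side between the panels, from 0.21 to -0.20.

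Oocyte growth was addressed by setting large oocytes of young mice beside small ones of the same age. Both comparisons use the young large arrays, so the values stand side by side and are not independent. miR-22 had scaled signals of 26.2 and 27.6 in young small oocytes, a mean of 26.9 ± 0.930 (SD, n = 2), next to 26.1 on both young large arrays. The groups missed each other narrowly. The log2 difference was -0.04 ± 0.03 (SE, 95% interval -0.13 to 0.04; limma, adjusted p = 0.359), which did not pass and was 0.277 times the error from the deposited errors.

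miR-155 had scaled signals of 11.99 and 13.8 in young small oocytes, a mean of 12.9 ± 1.31 (SD, n = 2), above both young large arrays. The log2 difference of young large from young small oocytes was -0.20 ± 0.08 (SE, 95% interval -0.45 to 0.05; limma, adjusted p = 0.159) and did not pass. Of the 2 members tested 0 were called, beside 37.2% of the 94 microRNAs tested in growth, and in 2 of 2 the groups did not overlap, beside 64.9%. Of the 56 entries detected on all 6 arrays, tested alone, 31 were called in growth (11 higher, 20 lower), with a median of -0.27. The signs rest on the scaling: miR-22 was above 0 under 4 of 5 other scalings and at 0 under quantile normalization, and miR-155 was above 0 under 3 of 5. Without any scaling both passed as higher in large oocytes, by 1.49 and 1.33 on the log2 scale (limma, adjusted p = 0.000505 and 0.00101, the lowest of 0.000505 to 1 and 0.00101 to 1 over their alternatives). Scaled levels of miR-22 ran from young small through young large to aged large oocytes, and the young small and young large groups did not pass as different. For miR-155 the order was aged large, young small and young large, with the first pair overlapping.

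**Figure D4:**
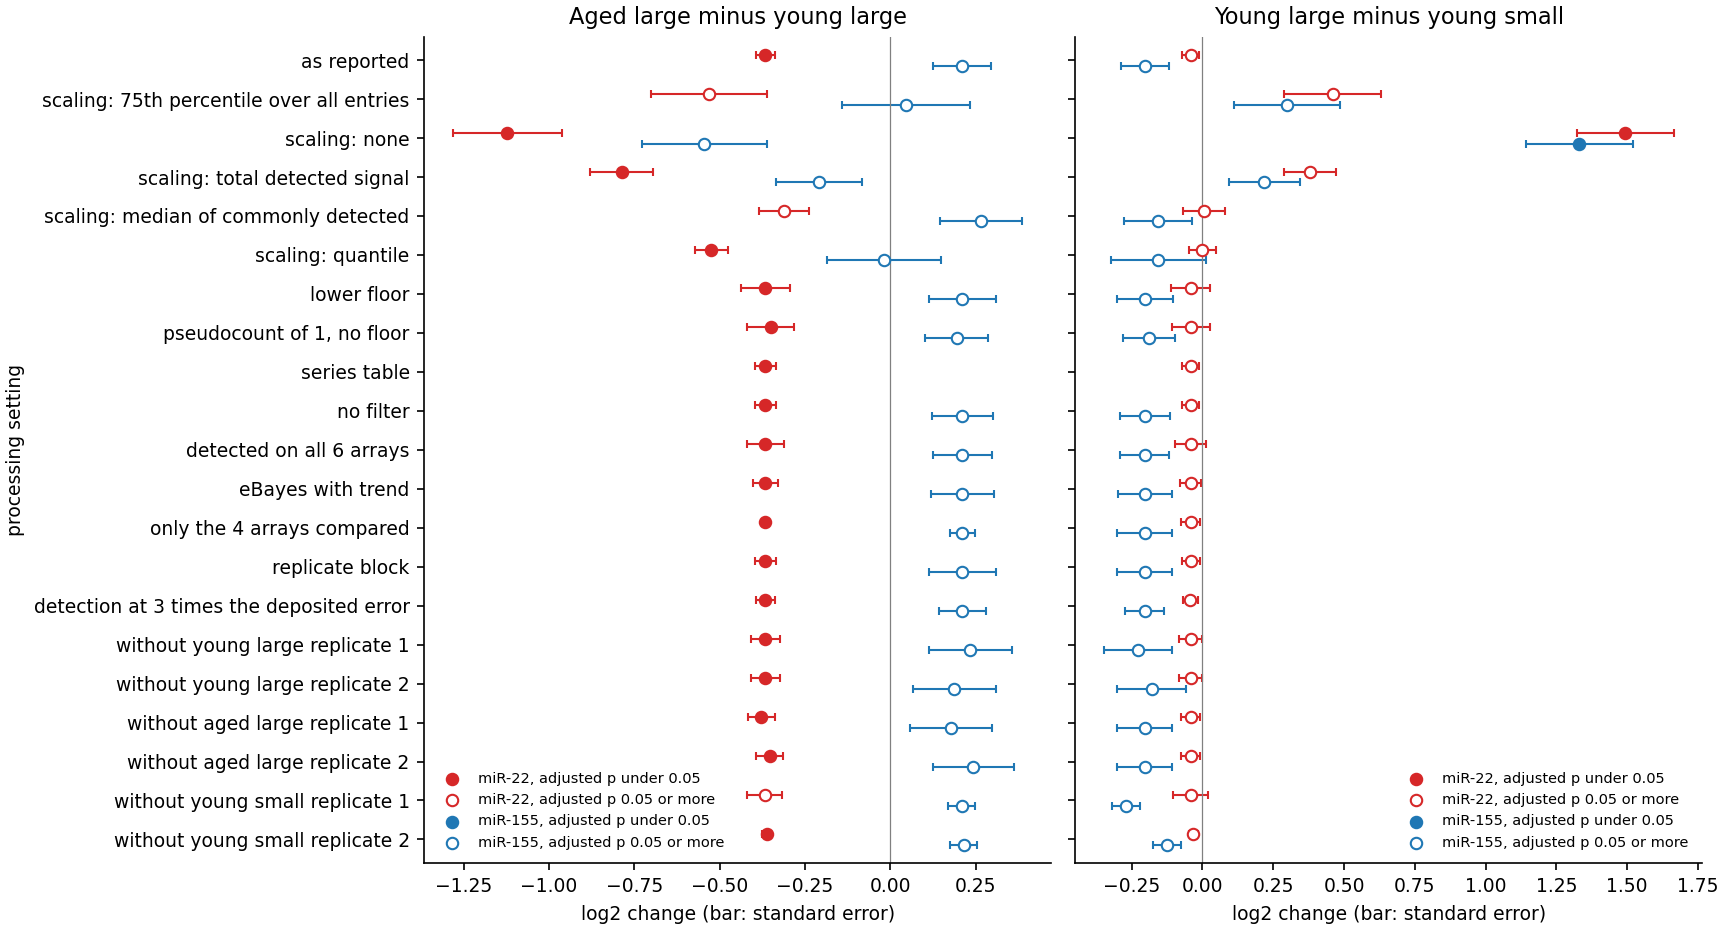
Log2 change (horizontal axis, with standard error) of miR-22 in red and miR-155 in blue under each processing setting (vertical axis), for ageing (left) and growth (right). Filled points have an adjusted p under 0.05. miR-22 stays below 0 in every ageing setting, from -1.12 to -0.31, and the scaling settings move both microRNAs most.

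miR-34a gave total signals of 0.571 and 1.42 for young large oocytes, 2.19 and 2.69 for aged ones and 0.345 and 0.713 for young small ones. Every value was within 1.83 times its deposited error, the 2 aged arrays having 1.35 and 1.83. The aged arrays were highest, but no array was called detected, so no fold is given and no test was made. On the aged arrays 30 and 17 undetected entries were brighter than miR-34a, of 498 and 488. Of the 469 entries detected on no array, 14.1% had both aged large signals above both young large ones.

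Relatives of miR-34a that share its seed are known to act on overlapping targets. Of the 8 entries of the miR-34 and miR-449 family on the array, none was called detected, beside 18.7% of all 577 entries detected on at least 1 array. The highest signal of any of the 8 on any array was the 2.69 of miR-34a. They include miR-34b-3p and miR-34c*, named for the other arm of their hairpins, so not all 8 need share the seed. Searching the RefSeq table for the same seed gave 3 mature mouse microRNAs, all array entries, shown here beside miR-34a for the stretch they have in common; miR-34c and miR-449b, also on the array, were not matched to a mature sequence, so the 3 need not be the full set.
miR-34b-5p: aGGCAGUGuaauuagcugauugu
miR-449a: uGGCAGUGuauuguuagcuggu
miR-449c: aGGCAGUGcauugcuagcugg
Counted from the 5′ end without gaps, miR-449a had the same base as miR-34a at 15 of 22 positions, miR-449c at 12 of 21 and miR-34b-5p at 11 of 22. Such a count does not rank how closely the 3 are related to miR-34a, since an extra base shifts every position after it. miR-34b-5p, the nearest of them in signal, had 2.02 and 1.91 in the aged group, 1.46 and 0.157 in the young large group and 1.48 and 0.776 in the young small group. Before scaling both aged signals lay above the other 4, as for miR-34a, and the young groups overlapped. After scaling miR-34b-5p had 2.12 and 1.80 in the aged group and 2.53 and 1.32 in the young small group, which overlapped. miR-449a stayed between -0.231 and 0.915 over the 6 arrays.

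miR-146a gave signals of 0.955 and -1.65 in young large, -0.377 and 1.43 in aged large and -0.982 and -0.523 in young small oocytes, where a value below 0 is a signal under the subtracted background. All 6 lay within 1 deposited error of 0, and the groups of large oocytes overlapped. Its relative miR-146b has the same seed and the same base at 20 of 22 positions, so probes for the 2 can be hard to keep apart.
miR-146b: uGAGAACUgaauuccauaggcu
miR-146b was also undetected, with signals between -1.77 and -0.452. The third entry of that family, miR-146b*, was below 0 on every array.

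miR-22 and its partner arm differed in detection. miR-22*, now called miR-22-5p and cut from the other side of the same hairpin, gave signals between -0.722 and 0.237 and was detected on 0 of 6 arrays.
miR-22*: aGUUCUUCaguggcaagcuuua
The other arm of the miR-155 hairpin was not analysed here.

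The microRNAs whose signal moved most like each detected member were found by the root mean square difference of centred log2 signals over the 6 arrays, among the 55 other commonly detected entries. Above the floor this measure, too, does not change with the factor by which each array is divided. For miR-22 they were miR-16 (0.0383), miR-26a (0.0525), miR-15a (0.0674) and miR-19b (0.106), against a median of 0.296 over the 55. They were chosen on the same 6 arrays, so their changes describe that choice and give no support to the fall of miR-22. With ageing their log2 changes were -0.30, -0.36, -0.25 and -0.55, and in growth -0.04, 0.04, -0.13 and -0.11. For miR-155 the nearest were miR-690 (0.0813), miR-92a (0.112), miR-689 (0.117) and let-7g (0.122), against a median of 0.266. Their log2 changes, again a description, were 0.22, 0.19, 0.30 and 0.18 with ageing and -0.23, -0.38, -0.21 and -0.37 in growth. The sign for miR-92a turned with ageing under 2 of 5 other scalings, and the growth signs of miR-92a and let-7g each turned under 3 of 5 and that of miR-19b under 4 of 5. Other signs rest on the scaling too. Leaving scaling out shifted log2 changes by -0.76 with ageing and 1.53 in growth. That shift is larger than, and opposite to, the ageing changes of miR-690, miR-689 and let-7g. The same holds for the growth changes of miR-690, miR-689, miR-16 and miR-15a. miR-22 and miR-155 differed from each other by 0.247 on this measure, near those medians.

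Of 13 other microRNAs linked to inflammation, 4 were detected on at least 1 array (30.8%, beside 18.7% of all 577 entries), and these 4 were tested. With ageing 2 of the 4 were called, beside 29.9% of all tested. They were let-7i and miR-223, with log2 changes of 0.39 and 1.11 (limma, adjusted p = 0.0237 and 0.0233), and the median of the 4 was 0.20, beside 0 over all tested. The call of let-7i passed under 0 of 5 other scalings and its sign turned under 2, to -0.37 without scaling and -0.03 with the total signal. miR-223 kept its sign under all 5 and passed under 2. miR-21, at -0.03, and miR-125b-5p, at the floor in both groups, did not pass. In growth 2 of the 4 were called, beside 37.2%: miR-223 was higher in large oocytes, under all 5 other scalings too, and let-7i was lower, by a log2 change of -0.81 that became 0.73 without scaling (median of the 4 -0.09, beside 0). The fall of let-7i passed under 2 of 5 other scalings. Over the 56 entries detected on all 6 arrays the medians were 0.12 with ageing and -0.27 in growth. miR-9, miR-132, miR-147 and the 4 members of the miR-181 family, linked to Toll-like receptor signalling and lymphocytes, were among those undetected.

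Of 14 other senescence-linked microRNAs, 7 were detected on at least 1 array (50%, beside 18.7% of all 577 entries) and 6 were tested. With ageing 1 of the 6 was called, beside 29.9% of all tested. It was miR-20a, which represses the cell cycle inhibitor p21 and fell (log2 change -0.40 ± 0.03, SE; limma, adjusted p = 0.00298), with the same sign under all 5 other scalings and past the threshold under 4 of them. The median of the 6 was -0.08, beside 0. In growth 4 of the 6 were called, beside 37.2%, with a median of -0.30, beside 0. Over the 56 entries detected on all 6 arrays the growth median was -0.27, close to that of the list. Tested alone, 31 of those 56 were called in growth. With ageing their median was 0.12. miR-20a, miR-29a and miR-29b were lower in large oocytes after the scaling used here, by log2 changes of -0.51, -0.59 and -0.50. They passed as lower under 1, 2 and 1 of 5 other scalings. With the percentile over all entries the changes were -0.01, -0.08 and 0.00055, and with the total signal -0.09, -0.16 and -0.08. Without scaling all 3 were higher there, by 1.02, 0.95 and 1.03. miR-200c was higher in large oocytes, at 0.26, kept that sign under all 5 other scalings and passed under 3. miR-24 and miR-106b did not pass.

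Markers of other cells were set beside these results, since miR-155 and miR-146a are abundant in leukocytes. All 6 microRNAs of the early embryo cluster miR-290 to miR-295 chosen as oocyte markers were detected, 3 of them on all 6 arrays. With ageing 1 of the 6 was called, beside 29.9% of all tested: miR-290-5p was higher (log2 change 1.20, limma adjusted p = 0.00580). In growth 5 of the 6, all but miR-290-5p, were called higher in large oocytes, beside 37.2% (median 1.36, beside 0). The 6 summed after scaling to 136 to 139 in aged large, 121 to 130 in young large and 43.4 to 46.6 in young small oocytes. miR-291b-5p, outside this list, was lower in growth (log2 change -0.85, limma adjusted p = 0.00396). Of 7 blood cell microRNAs only miR-223, known from myeloid cells, was detected, on the 4 large oocyte arrays; miR-142-3p, miR-142-5p, miR-150, miR-144, miR-451 and miR-486 were not, with a highest total signal of 2.24. The summed scaled signal of the list was 53.2 to 57.2 in aged large, 26.6 to 27.7 in young large and 11.2 to 11.6 in young small oocytes. In large oocytes miR-223 made up almost all of it. The scaled sum was higher with ageing, as the ratio of miR-155 to miR-22 was. From young small to young large oocytes the scaled sum was higher and the ratio lower. Before scaling the sums of aged and young large arrays overlapped, at 50.7 to 60.6 and 41.2 to 51.8. The part of miR-223 in the values of miR-155 and miR-22 was not tested. Of 7 granulosa cell microRNAs miR-21 and miR-212 were detected, and the sum was 19.7 to 26.2 in aged large, 19.3 to 20.1 in young large and 15.6 to 19.3 in young small oocytes. Neither passed in either comparison. None of 6 microRNAs of stroma, smooth muscle and endothelium was detected, with a highest signal of 1.18. Beside 18.7% of all 577 entries, 14.3% of the blood cell list, 28.6% of the granulosa cell list and 0% of this last list were detected on at least 1 array. With lists this short, such shares do not tell which cells were present.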

How the data were processed

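Per the labels, total RNA was labelled with cyanine 3; the submitters' processing notes name Agilent Feature Extraction 9.5 as the image software. Scanner files as deposited hold, per the file headers, a total signal intensity per microRNA, its error, a detection call and the fraction of spots kept, with no normalization between arrays recorded there; for the 4 microRNAs that fraction was between 0.8 and 1. The deposited series table repeats these intensities with values under 10 set to 0 (0 entries otherwise differed).

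The 23 control entries were left out. Signals were divided by each array's 75th percentile over the 56 commonly detected entries, floored at 6.17 (the highest of the arrays' lowest detected scaled signals) and put on the log2 scale. Entries detected on both arrays of a compared group were tested with limma 3.58.1 (R 4.3.3; lmFit and eBayes, all 6 arrays, two-sided, Benjamini-Hochberg, threshold 0.05), after a check on simulated arrays. The members, the lists, the alternatives and the rule for named microRNAs (the members, list entries past the threshold or otherwise up to 2 with the smallest p, and 4 most alike in pattern) were chosen with earlier results of these data known; relatives by seed, undetected list entries and the ratio were added to it. Sequences are RefSeq's. Figures used matplotlib 3.10.9.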

Additional observations from a re-analysis of the deposited data

How the results depend on the processing

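The number of microRNAs past the threshold with ageing, 29 of 97 (14 higher, 15 lower), was 6 with the percentile over all entries, 58 without scaling, 12 with no filter and 16 with the replicate block, and 16 to 30 with 1 array left out, the lowest without young small array 1 and 19 without either young large array 1 or young small array 2. In growth, 35 of 94 (17 higher, 18 lower) became 17, 84 and 1 under the first 3 of these settings and 16 with the series table, and 13 to 36 with 1 array left out, the lowest without young small array 1. The split of higher to lower was 3 to 55 without scaling, 4 to 24 with the total signal and 8 to 15 with quantile normalization for ageing, and 84 to 0, 26 to 1 and 19 to 11 for growth, with 17 to 0 for the percentile over all entries. Over the commonly detected entries the scalings moved log2 changes by -0.76 (none), -0.42 (total), -0.17 (all entries), -0.14 (quantile) and 0.06 (median) in ageing, and by 1.53, 0.42, 0.50, 0.03 and 0.05 in growth.

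miR-22 with ageing did not pass with the percentile over all entries (-0.53) or the median (-0.31), and had -0.38 to -0.35 with 1 array left out. miR-155 with ageing was -0.55, -0.21 and -0.018 without scaling, with the total signal and with quantiles. In growth miR-22 was 0.46 (all entries), 1.49 (none), 0.38 (total) and 0.0052 (median), and miR-155 0.30, 1.33 and 0.22 under the first 3. Beyond the scalings' own shifts the cause was not tested. With 1 array left out, a lone array is assumed to vary like the other groups.

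Duplicates with the same number were not paired by the labels, and their deviations correlated with r = 0.187 (young and aged large), -0.179 (young large and small) and -0.0320 (aged large and young small) over 97 microRNAs. With the replicate block the count for growth was 26, also with the numbers of the young small arrays crossed, an alternative chosen after seeing the data, and no call of miR-22 or miR-155 changed (miR-22 with ageing: limma, adjusted p = 0.0235). The series table gave no value for miR-155, which lay under the floor there. Normexp correction and a slide block were not run, as the files used here hold no spot signals or slides. Arrays of young small oocytes, the dimmest, limit what is detected.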

Other observations

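Below the detection limit, the 8 entries of the miR-34 and miR-449 family summed, with negative signals set to 0, to 4.83 and 6.32 on the aged large arrays, between 1.93 and 2.48 on the young large arrays and between 1.87 and 4.11 on the young small arrays, before scaling. The aged arrays were above the other 4 before scaling but not after it, where young small arrays had 3.17 and 7.05 and aged large arrays 5.06 and 5.96. Of the 469 entries detected on no array, miR-34a was 1 of 5 whose mean signal was higher in aged than in young large oocytes by at least as much as its own, 2.44 ± 0.354 and 0.996 ± 0.601 (SD, n = 2 each). These values were picked after they were seen, lie within 2 deposited errors of 0 and carry no test.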
